A study of Mus musculus with 16 samples.

Results

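Ephrins, semaphorins and their receptors were examined by bulk RNA-seq across 16 MC38 tumors, each from another mouse. The members were the protein-coding genes whose symbols begin with Efna, Efnb, Epha, Ephb, Sema or Plxn, together with Nrp1 and Nrp2. There were 53 such genes among the 53465 in the table, comprising 8 ephrins, 14 Eph receptors, 20 semaphorins, 9 plexins and 2 neuropilins. MC38 is a mouse colon carcinoma line, and in every group 1000000 cells were placed under the skin of the right flank of female C57BL/6 mice aged 6 to 8 weeks. The mice received 200 µg of control IgG or of aPD-1, an antibody against the T cell checkpoint receptor PD-1, on days 16 and 20, and tumors were taken on day 21. The groups were 8 IgG control tumors, 6 aPD-1 non-responder tumors and 2 aPD-1 responder tumors. Responder status was assigned in the study from CD8 T cell staining of the same tumors, so the T cell content of the responders was part of their definition. Mice entered the study once their tumors had reached a set size, and the tumor RNA came from sections that hold cancer cells and host cells together.

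Ephrins are membrane-bound ligands of the Eph receptor tyrosine kinases, and a contact between an ephrin on one cell and an Eph receptor on another signals into both cells, often with repulsion or boundary formation as the result. Semaphorins are secreted or membrane-bound cues that act through plexins, large receptors that regulate small GTPases, and most of the secreted class 3 semaphorins need the neuropilins as co-receptors. Both systems guide growing axons, shape blood vessels, and act between immune cells, and both are active in carcinomas.

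Counts per tumor totalled 26603449 to 39948866, with a median of 34105782. Values are given as CPM, counts per 1000000 after scaling of library size, and differences as log2 fold changes with standard errors from edgeR's quasi-likelihood test, adjusted by Benjamini-Hochberg over 18251 genes. Members whose adjusted p was below 0.05 and whose log2 fold change exceeded 1 in either direction are termed called. Of the 53 members 49 passed the filter on low counts, while Epha5, Epha6, Epha10 and Sema3e, with at most 13 counts in a tumor, did not. The mitochondrial share of counts was 5.73% to 7.6% in 3 tumors, IgG control replicate 1 and non-responder replicates 9 and 14, and 2.52% to 3.25% in the other 13. Of the markers of colon epithelium Cdx2 had a mean of 0.0032 CPM in IgG controls and 0 CPM in both other groups, and Epcam averaged 0.487 CPM in IgG controls and 0.401 CPM in non-responders against 7.98 CPM in responders, so the defining epithelial genes were near 0 in most of these tumors.

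The members ranged widely in level. Per kilobase of exon, averaged over the 16 tumors, 9 members reached at least 10 CPM, 18 lay between 1 and 10, 15 between 0.1 and 1, and 11 were lower. Plxnb2, a receptor for class 4 semaphorins, had the highest level per length at 22.2 ± 3.53 CPM per kilobase (SD, n = 16). Sema3a, a secreted repellent that signals through Nrp1, followed at 15.7 ± 4.09 and Sema7a, a lipid-anchored semaphorin that binds Plxnc1, at 14.6 ± 3.46 CPM per kilobase. The means of Sema3a and Sema7a differed by less than the SD of either over tumors. Nrp2, a co-receptor for class 3 semaphorins and for VEGF-C, stood at 13.96 ± 2.09 and Nrp1, its paralog that also binds VEGF-A, at 4.43 ± 1.38 CPM per kilobase, and the ranges of the 2 neuropilins did not overlap, with the lowest Nrp2 value at 10.4 and the highest Nrp1 value at 7.05. Efnb2, a transmembrane ephrin known from arterial endothelium, was the ephrin of highest level at 13.5 ± 3.36 CPM per kilobase. Among Eph receptors Epha2, which binds ephrin-A ligands and is common in carcinoma cells, led at 10.8 ± 1.87 CPM per kilobase, ahead of Ephb4, the receptor paired with Efnb2 in vessels, at 6.47 ± 0.825.

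**Figure D1:**
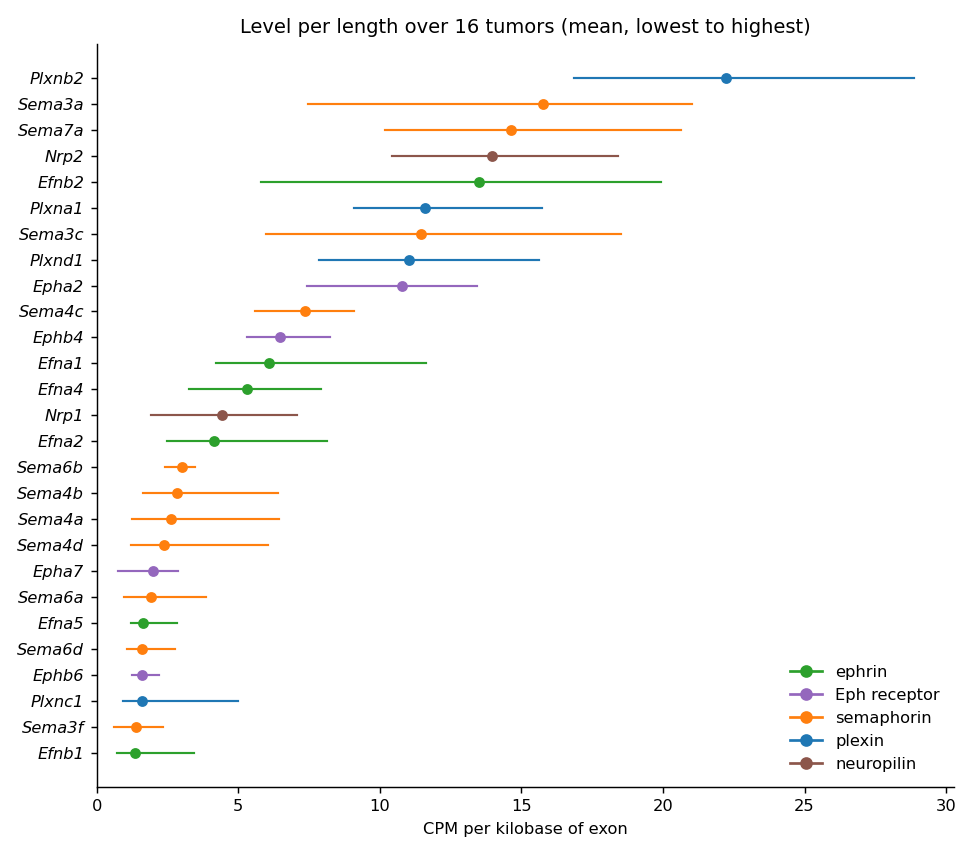
CPM per kilobase of exon for the 27 members with a mean of at least 1. Points are means over 16 tumors and lines run from the lowest to the highest tumor, with colors for the role. Plxnb2 stands at 22.2 and Efnb1 closes the order at 1.34, and most neighbouring ranges overlap.

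Between responders and non-responders semaphorins were the role with the most called members. In all, 11 members were called higher in responders, against 12.5% of all genes tested, and 2 were called lower, against 0.663% of all genes. At any fold, 11 members had a higher level at an adjusted p below 0.05 (15.4% of all genes) and 6 a lower one (4.34% of all genes). The 11 called higher were Epha4, Efnb1, Plxna4, Plxnc1, Sema3b, Sema3d, Sema3g, Sema4a, Sema4d, Sema4f and Sema5a, and the 2 called lower were Epha7 and Efnb2. The median log2 fold change was -0.003 over the 49 tested members and 0.019 over all genes. By role, 7 of 19 tested semaphorins, 2 of 9 plexins, 1 of 8 ephrins and 1 of 11 Eph receptors were called higher, and neither of the 2 neuropilins. In bulk tissue, more cells of a type and more RNA per cell cannot be told apart.

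The responders also differed from the other tumors in their cell markers. All 8 T cell markers and all 8 B cell markers were called higher, with summed levels of 169 to 181 CPM for T cells and 294 to 1147 CPM for B cells in the 2 responders against 9.59 to 26.3 and 1.88 to 6.26 CPM in non-responders. Blood vessel endothelium had 2 of 8 markers called higher, with sums of 214 to 394 CPM against 55.1 to 193 CPM, and all 4 markers of high endothelial venules, the lymphocyte entry vessels of lymphoid tissue, were called higher with sums of 34.6 to 192 CPM against 0.425 to 1.22 CPM. Lists of fat cells (5 of 5 called higher, 213 to 1180 CPM against 19.3 to 50.2 CPM) and of Schwann cells and nerve (5 of 8, 31.0 to 63.6 CPM against 16.3 to 32.3 CPM) moved as well. Dendritic cell markers (6 of 7 called higher), plasma cell markers (4 of 5), pericyte markers (2 of 5) and lymphatic markers (2 of 4 tested) did so too. Of the colon epithelium list 4 of 6 tested genes were called higher, of macrophages 1 of 8, of fibroblasts 1 of 8, of neutrophils 2 of 5, and of skeletal muscle, keratinocytes, proliferation and hypoxia none of 6, 5, 6 and 6 in either direction, although 2 proliferation genes passed at a smaller fold and were lower. These lists moved together with the member calls given here, and their part in them was not tested. Responder replicate 15 held the higher sum in each list whose sums are given above. The Schwann cell and nerve sum of replicate 16, 31.0 CPM, lay within the range of non-responders.

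**Figure D2:**
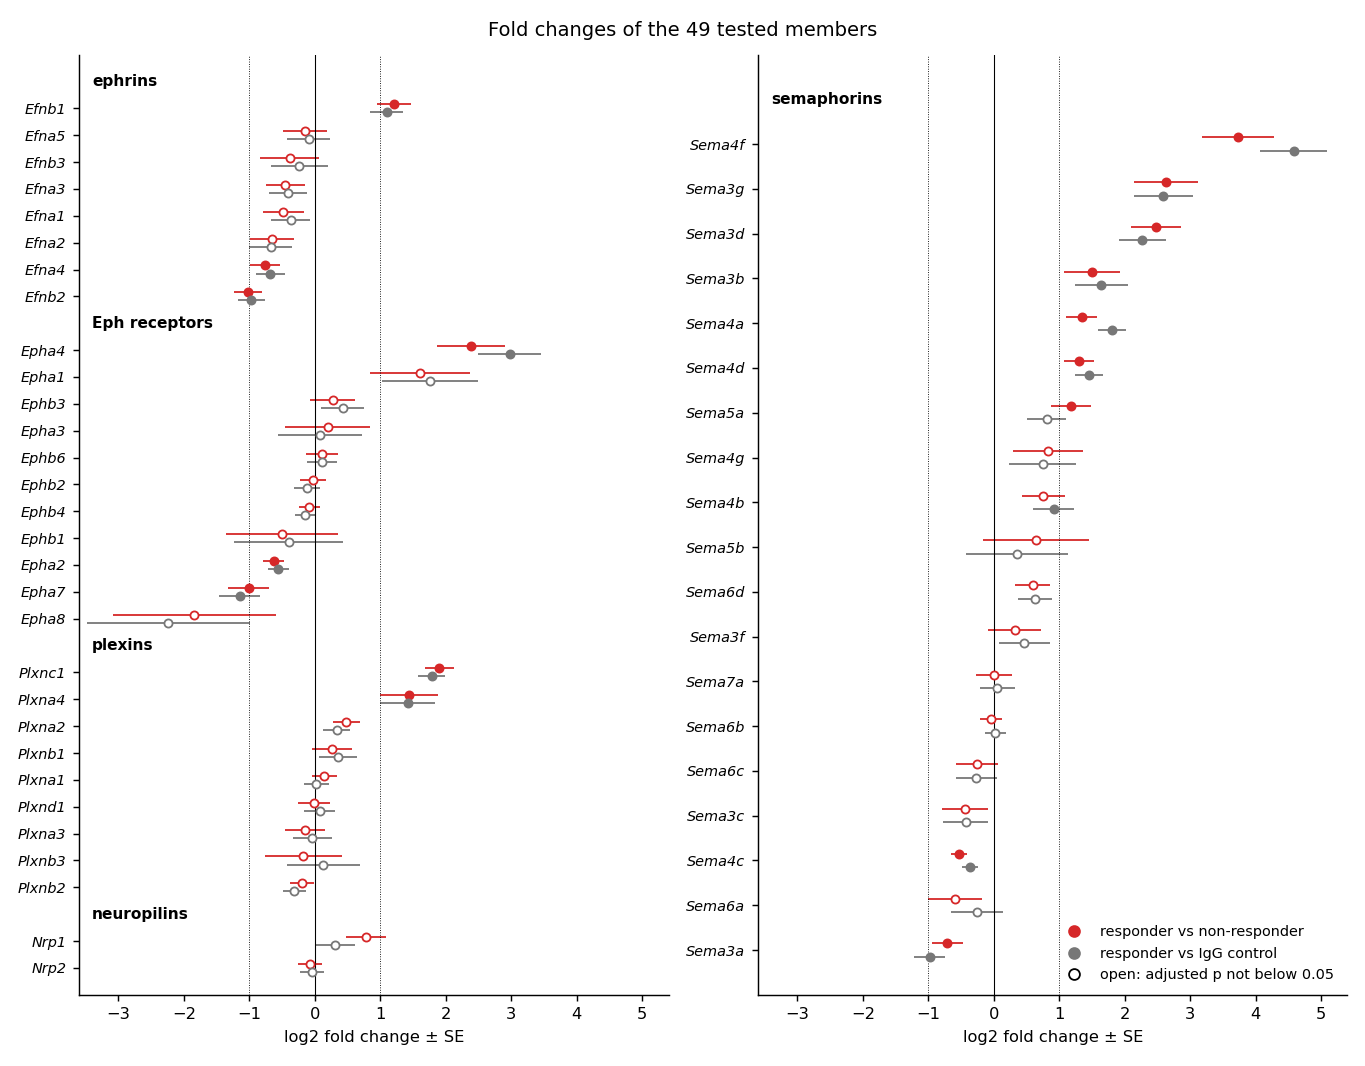
Log2 fold change with its standard error for the 49 tested members, by role, of responders over non-responders (red) and over IgG controls (grey). Filled points have an adjusted p below 0.05. Semaphorins spread from -0.71 for Sema3a to 3.73 for Sema4f between responders and non-responders.

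Upstream sequences are shown for Plxnc1 and Sema4f, the 2 members called higher with the smallest p against non-responders, and for both members called lower. These let the promoters of members that moved in opposite directions be read side by side. Each is the 250 bases before the RefSeq transcription start in GRCm38.p6, written 5′ to 3′ on the strand of the gene. Capitals mark 3 motifs found by search on both strands, the GC box (GGGCGG), the CCAAT box (CCAAT) and the TATA box (TATAAA), or their reverse complements. Plxnc1 lies at chr10:94944846-94945095 on the minus strand and Sema4f at chr6:82939770-82940019 on the minus strand. Efnb2 lies at chr8:8661243-8661492 on the minus strand and Epha7 at chr4:28812881-28813130 on the plus strand, where the table lists 2 starts for Epha7.
Plxnc1: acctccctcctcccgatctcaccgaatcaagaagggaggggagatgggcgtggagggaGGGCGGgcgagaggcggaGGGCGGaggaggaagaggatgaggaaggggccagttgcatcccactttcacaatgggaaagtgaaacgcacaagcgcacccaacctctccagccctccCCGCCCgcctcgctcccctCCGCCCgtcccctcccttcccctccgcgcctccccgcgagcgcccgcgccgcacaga
Sema4f: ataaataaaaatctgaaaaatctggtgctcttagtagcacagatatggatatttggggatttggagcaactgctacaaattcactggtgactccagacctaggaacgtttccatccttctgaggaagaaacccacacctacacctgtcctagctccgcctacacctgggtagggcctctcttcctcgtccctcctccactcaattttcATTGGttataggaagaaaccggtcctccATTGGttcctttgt
Efnb2: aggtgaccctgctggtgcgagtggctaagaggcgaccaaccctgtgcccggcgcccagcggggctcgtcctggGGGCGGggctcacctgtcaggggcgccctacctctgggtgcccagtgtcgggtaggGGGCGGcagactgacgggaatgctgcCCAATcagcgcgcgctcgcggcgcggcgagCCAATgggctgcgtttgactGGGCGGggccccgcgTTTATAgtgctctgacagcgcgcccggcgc
Epha7: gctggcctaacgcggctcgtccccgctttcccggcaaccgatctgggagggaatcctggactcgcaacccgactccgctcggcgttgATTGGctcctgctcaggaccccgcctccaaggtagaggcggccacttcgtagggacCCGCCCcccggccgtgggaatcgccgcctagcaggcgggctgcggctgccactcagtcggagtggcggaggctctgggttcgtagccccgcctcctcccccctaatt
Plxnc1 held 4 GC boxes and no CCAAT or TATA box, and Sema4f held 2 CCAAT boxes and neither of the others. Efnb2 held 3 GC boxes, 2 CCAAT boxes and a TATA box 30 bases before the start, and Epha7 held a GC box and a CCAAT box. Among the 47 members with such a sequence, 36 (76.6%) held a GC box, against 39.6% of 20428 promoters of the same length. A CCAAT box was in 15 members (31.9%, against 35.2% of promoters) and a TATA box in 1, Efnb2 (2.13%, against 12.2%). Searches for ACGTG, the core of the hypoxia response element, found 8 members (17%, against 17.4%), and for CACGTG, an E box that contains it, 2 (4.26%, against 6.44%). TGANTCA, the AP-1 site, was in 1 member (2.13%, against 6.40%), TTCNNNGAA, the STAT-binding GAS element, in 2 (4.26%, against 6.79%), and CCGGAA, an ETS core, in 5 (10.6%, against 14.3%). These are matches of letters in this window, not sites shown to be bound.

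Among the ephrins, the B class moved in both directions. Efnb1, a transmembrane ligand of EphB receptors, stood at 11.9 and 5.93 CPM in the responders, against 2.47 to 5.39 CPM in non-responders (median 3.48, n = 6) and 3.93 to 4.63 CPM in IgG controls (median 4.13, n = 8). Both responders lay above every other tumor, although the second was close to the highest non-responder. The log2 fold change was 1.21 ± 0.26 against non-responders (adjusted p = 0.00293) and 1.09 ± 0.25 against IgG controls (adjusted p = 0.00361). Efnb2 went the other way, with 59.3 and 39.8 CPM in the responders, 83.8 to 137 CPM in non-responders (median 89.6) and 81.2 to 121 CPM in IgG controls (median 93.5). Each responder was below all 14 other tumors. Efnb2 had a log2 fold change of -1.02 ± 0.21 against non-responders (adjusted p = 0.0025) and -0.97 ± 0.21 against IgG controls (adjusted p = 0.00243), the second short of the fold limit. Efna4, a lipid-anchored ligand of EphA receptors, passed the test at a smaller fold, -0.76 ± 0.23 (adjusted p = 0.0253) and -0.68 ± 0.22 (adjusted p = 0.0330) against the same groups. Against non-responders the other 5 ephrins ranged from -0.65 to -0.15 in log2 fold change, with adjusted p of 0.204 or higher. Without responder replicate 15 the log2 fold change of Efnb1 against non-responders was 0.55 (adjusted p = 0.415) and that of Efna4 -0.78 (adjusted p = 0.217), and without replicate 16 that of Efnb2 was -0.82 (adjusted p = 0.0540) and that of Efna4 -0.87 (adjusted p = 0.0776).

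Among the Eph receptors, Epha4 rose and Epha7 and Epha2 fell in responders. Epha4, which unlike most of its class binds ephrins of both classes, was at a low level everywhere, with 2.45 and 0.984 CPM in the responders (83 and 35 counts), 0.136 to 0.486 CPM in non-responders (median 0.341, 4 to 18 counts) and 0.0760 to 0.373 CPM in IgG controls (median 0.189, 2 to 13 counts). Both responders lay above all 14 other tumors, while non-responders and IgG controls overlapped. Its log2 fold change was 2.38 ± 0.51 against non-responders (adjusted p = 0.00302) and 2.97 ± 0.48 against IgG controls (adjusted p = 0.000201). Epha7, a receptor for ephrin-A ligands, had 7.30 and 12.5 CPM in the responders, 13.4 to 28.5 CPM in non-responders (median 18.5) and 14.2 to 28.1 CPM in IgG controls (median 23.1). The higher responder was just under the lowest tumor of the other groups. Its log2 fold change was -1.01 ± 0.32 (adjusted p = 0.0313) and -1.15 ± 0.31 (adjusted p = 0.0125). Epha2 was at 34.6 and 35.4 CPM in the responders, 41.9 to 62.8 CPM in non-responders (median 53.5) and 42.3 to 57.8 CPM in IgG controls (median 53.4). Here the 2 responders were nearly equal and below all other tumors, and Epha2 differed by -0.62 ± 0.16 from non-responders (adjusted p = 0.0105) and by -0.56 ± 0.16 from IgG controls (adjusted p = 0.0149) on the log2 scale. The other 8 tested Eph receptors did not pass against non-responders (adjusted p of 0.164 or higher), among them Ephb4 at -0.08 ± 0.16 and Ephb2, a receptor for ephrin-B ligands, at -0.03 ± 0.20. Epha1 shares exons with Zyx on the other strand, which was at 67.6 CPM against 0.171 CPM for Epha1, and Epha1 had 1 to 19 counts in a tumor. Its value was 1.61 ± 0.77 (adjusted p = 0.164), and the part of the overlap in it was not tested. Without responder replicate 15 the log2 fold changes against non-responders were 1.52 for Epha4 (adjusted p = 0.278), -0.75 for Epha7 (adjusted p = 0.389) and -0.68 for Epha2 (adjusted p = 0.0899), and without non-responder replicate 12 that of Epha7 was -0.94 and did not pass.

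The 3 secreted semaphorins Sema3b, Sema3d and Sema3g were several-fold higher in responders, while Sema3a was lower. Sema3g, known from arterial endothelium, stood at 13.6 and 4.67 CPM in the responders, 0.644 to 2.88 CPM in non-responders (median 1.41) and 0.660 to 2.49 CPM in IgG controls (median 1.34). Sema3d, a cue in vessel and neural crest development, was at 7.04 and 4.70 CPM in the responders, 0.610 to 1.39 CPM in non-responders (median 1.12) and 0.570 to 1.88 CPM in IgG controls (median 1.23). Sema3b, studied as a tumor suppressor, was at 5.14 and 3.71 CPM in the responders, 0.962 to 2.22 CPM in non-responders (median 1.39) and 0.630 to 2.93 CPM in IgG controls (median 1.33). For all 3 genes both responders were above the other 14 tumors, and replicate 15 was the higher one, with the widest gap for Sema3g. The log2 fold changes against non-responders were 2.62 ± 0.49 for Sema3g (adjusted p = 0.000966), 2.48 ± 0.38 for Sema3d (adjusted p = 0.000167) and 1.498 ± 0.43 for Sema3b (adjusted p = 0.0208). Against IgG controls they were 2.59 ± 0.46 (adjusted p = 0.000446), 2.27 ± 0.36 (adjusted p = 0.000155) and 1.64 ± 0.41 (adjusted p = 0.00691). Sema3a, the semaphorin of highest level, was at 103 and 150 CPM in the responders, 172 to 246 CPM in non-responders (median 207) and 141 to 291 CPM in IgG controls (median 268). The responders were below all non-responders, while IgG control replicate 1, a tumor of high mitochondrial share, overlapped with them. Its log2 fold change was -0.71 ± 0.24 (adjusted p = 0.0432) and -0.98 ± 0.24 (adjusted p = 0.00568). Sema3c, a class 3 semaphorin of similar level, differed by -0.44 ± 0.35 (adjusted p = 0.439) and Sema3f, which prefers Nrp2, by 0.32 ± 0.41 (adjusted p = 0.663). Without responder replicate 15 Sema3d passed at 2.09 (adjusted p = 0.0157) against non-responders, while Sema3g was at 1.59 (adjusted p = 0.175), Sema3b at 1.17 (adjusted p = 0.332) and Sema3a at -0.54 (adjusted p = 0.428). Without non-responder replicate 10 Sema3b was at 1.38 and did not pass, and Sema3a passed neither without any 1 of 3 non-responders and 4 IgG controls, at -0.73 to -0.66, nor with a stricter filter on low counts.

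Of the membrane-bound class 4 semaphorins, Sema4a, Sema4d and Sema4f rose and Sema4c fell. Sema4a, which dendritic and T cells carry and which binds B plexins and Tim-2, was at 34.8 and 33.6 CPM in the responders, 9.11 to 17.2 CPM in non-responders (median 13.5) and 6.77 to 12.7 CPM in IgG controls (median 9.62). Sema4d, also named CD100, a T cell semaphorin that binds Plxnb1 and CD72, was at 46.3 and 32.5 CPM in the responders, 12.3 to 20.0 CPM in non-responders (median 14.9) and 9.31 to 19.0 CPM in IgG controls (median 13.8). The responders stood clear of all other tumors for both genes, and for Sema4a they were nearly equal. Sema4a had a log2 fold change of 1.34 ± 0.23 against non-responders (adjusted p = 0.000461) and 1.80 ± 0.21 against IgG controls (adjusted p = 8.4e-06), and Sema4d of 1.302 ± 0.23 (adjusted p = 0.00060) and 1.45 ± 0.22 (adjusted p = 9.4e-05). Sema4f, a class 4 semaphorin of neurons and glia, had the highest fold change of all members from a level near 0. It was at 3.04 and 2.36 CPM in the responders (103 and 84 counts), 0.0608 to 0.336 CPM in non-responders (median 0.204, 2 to 11 counts) and 0 to 0.201 CPM in IgG controls (median 0.114, 0 to 7 counts). The fitted log2 fold change was 3.73 ± 0.55 against non-responders (adjusted p = 0.000107) and 4.58 ± 0.52 against IgG controls (adjusted p = 4.69e-06), sizes that rest on few counts in the lower groups. Sema4c, a ligand of Plxnb2, was at 25.6 and 25.8 CPM in the responders against 32.5 to 41.8 CPM in non-responders (median 37.0) and 28.2 to 36.5 CPM in IgG controls (median 33.6). On the log2 scale it differed by -0.53 ± 0.12 (adjusted p = 0.00529) and -0.37 ± 0.12 (adjusted p = 0.0334). Sema4b, a related membrane semaphorin, was at 36.2 CPM in responder replicate 15 and at 15.9 CPM in replicate 16, within the 12.2 to 20.1 CPM of non-responders. Its log2 fold change was 0.76 ± 0.33 against non-responders (adjusted p = 0.126), and -0.03 without replicate 15. Without replicate 15 Sema4a (1.24, adjusted p = 0.0214) and Sema4f (3.46, adjusted p = 0.00674) passed against non-responders, while Sema4d was at 0.95 (adjusted p = 0.0739) and Sema4c at -0.60 (adjusted p = 0.0578).

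Sema5a, a transmembrane semaphorin with thrombospondin repeats, rose against non-responders. It was at 18.3 and 18.0 CPM in the responders, 5.46 to 10.6 CPM in non-responders (median 7.95) and 6.16 to 16.1 CPM in IgG controls (median 9.09). The responders agreed closely and lay above both groups, with 2 IgG controls near them. Its log2 fold change was 1.18 ± 0.30 against non-responders (adjusted p = 0.0107) and 0.80 ± 0.30 against IgG controls (adjusted p = 0.0608). The first was 1.10 without responder replicate 15 (adjusted p = 0.147) and 1.14 without replicate 16 (adjusted p = 0.0603). Class 6 and 7 members did not pass in either comparison, among them Sema7a, whose log2 fold change was -0.003 ± 0.28 against non-responders (adjusted p = 0.996), and Sema6d, a ligand of Plxna1, at 0.59 ± 0.27 (adjusted p = 0.147).

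**Figure D3:**
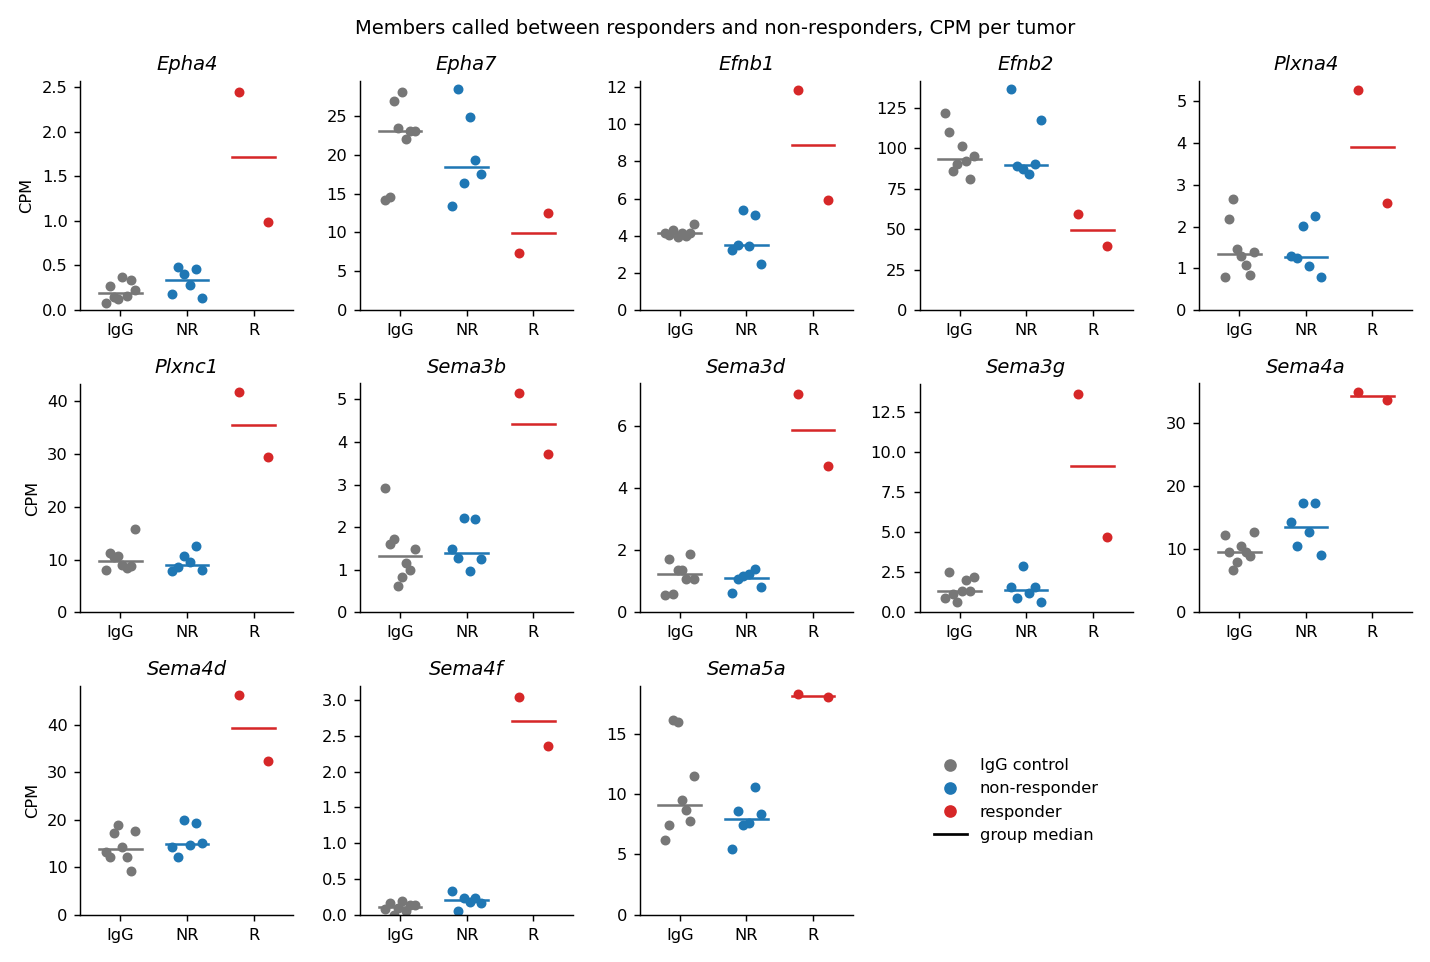
CPM in every tumor for the 13 members called between responders and non-responders, with IgG control (grey), non-responder (blue) and responder (red) tumors as points and group medians as lines. For Epha7 and Efnb2 both responders lie below all other tumors, and for the other 11 genes both lie above the 6 non-responders. Of all genes tested, 34.7% had responders and non-responders that did not overlap.

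Among the receptors of semaphorins, Plxnc1 had the smallest adjusted p of all members in the comparison with non-responders. Plxnc1, the receptor of Sema7a, was at 41.7 and 29.4 CPM in the responders, 7.81 to 12.5 CPM in non-responders (median 9.05) and 8.10 to 15.9 CPM in IgG controls (median 9.76). Both responders were well above every other tumor. The log2 fold change was 1.90 ± 0.22 against non-responders (adjusted p = 1.0e-05) and 1.78 ± 0.21 against IgG controls (adjusted p = 7.6e-06), and 1.56 against non-responders without responder replicate 15 (adjusted p = 0.00181). Its ligand Sema7a, as given above, did not pass. Plxna4, which with neuropilins receives class 3 signals, was at 5.26 and 2.56 CPM in the responders, 0.779 to 2.26 CPM in non-responders (median 1.26) and 0.798 to 2.66 CPM in IgG controls (median 1.34). The lower responder overlapped with the IgG controls and exceeded the highest non-responder by a small margin. Plxna4 had a log2 fold change of 1.44 ± 0.44 (adjusted p = 0.0292) and 1.42 ± 0.42 (adjusted p = 0.0210), and against non-responders 0.76 without responder replicate 15 (adjusted p = 0.602). The call against non-responders was also lost without non-responder replicate 10, 12 or 14, at 1.31 to 1.36. Plxnb2 was at 149 and 143 CPM in the responders, 140 to 186 CPM in non-responders (median 171) and 130 to 223 CPM in IgG controls (median 171), with a log2 fold change of -0.20 ± 0.18 (adjusted p = 0.514) against non-responders. The other 6 plexins had log2 fold changes of -0.18 to 0.48 there and did not pass.

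The neuropilins did not pass in any comparison. Nrp2 was at 163 and 156 CPM in the responders, 133 to 218 CPM in non-responders (median 162) and 123 to 190 CPM in IgG controls (median 167), and the 3 groups overlapped. Its log2 fold change was -0.08 ± 0.19 against non-responders (adjusted p = 0.832). Nrp1 was at 69.0 and 47.2 CPM in the responders, 18.7 to 49.4 CPM in non-responders (median 35.6) and 23.3 to 60.6 CPM in IgG controls (median 48.0), with a log2 fold change of 0.78 ± 0.30 against non-responders (adjusted p = 0.0823).

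Against IgG controls, which share the 2 responder tumors with the comparison above, 10 members were called higher in responders (14.3% of all genes tested) and 1, Epha7, lower (0.641% of all genes). At any fold 11 members were higher (17.7% of all genes) and 6 lower (5.17% of all genes) at an adjusted p below 0.05. The called genes were Epha4, Efnb1, Plxna4, Plxnc1, Sema3b, Sema3d, Sema3g, Sema4a, Sema4d and Sema4f on the higher side. Sema4b passed here at 0.92 ± 0.31 (adjusted p = 0.0433), but not under 13 of 22 alternatives, among them 0.13 without responder replicate 15. Efna4 and Sema4c, at -0.68 and -0.37, no longer passed in a fit of only the 2 groups, at -0.67 and -0.35. The median log2 fold change was 0.07 over the members and -0.02 over all genes. Both responders lay above all IgG controls for 10 tested members, against 19.3% of all genes, and below them for 5, against 9.67% of all genes.

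The counts of called members rested to a large part on responder replicate 15. Without it 5 members were called against non-responders, of 49 tested (10.2%, against 4.86% of all genes), namely Efnb2, Plxnc1, Sema3d, Sema4a and Sema4f. Against IgG controls Sema4d was called in addition to those 5 without it, 6 in all (12.2%, against 6.47% of all genes). Without replicate 16 the counts were 13 in both comparisons, of 51 tested (25.5%, against 13.3% and 15.2% of all genes). In these fits the responder left is assumed to vary like the tumors of the other groups. Of the 13 members called with both responders, Plxnc1, Sema3d, Sema4a and Sema4f passed against non-responders with either responder left out.

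**Figure D4:**
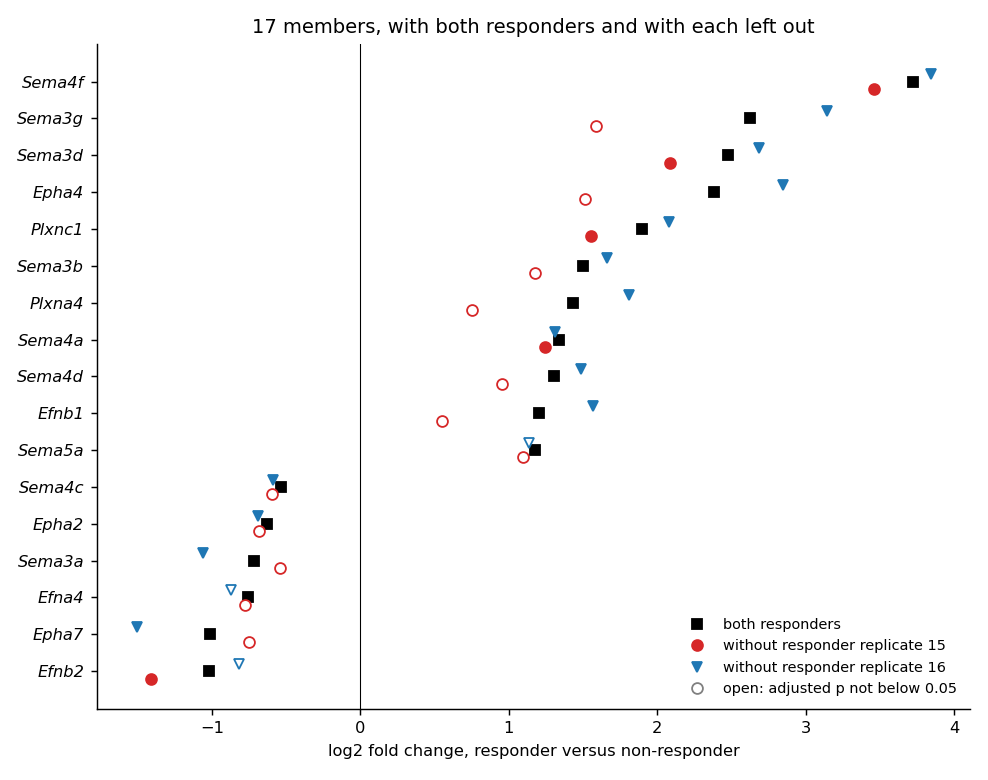
Log2 fold change of responders over non-responders for the 17 members with an adjusted p below 0.05, with both responders (black) and without responder replicate 15 (red) or 16 (blue). Open points have an adjusted p of 0.05 or more. Plxnc1, Sema3d, Sema4a and Sema4f are filled in all 3 fits.

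Between non-responders and IgG controls no member passed. The non-responders were set apart after treatment by their CD8 T cell staining, whereas the IgG controls were not selected in this way. An effect of aPD-1 and that selection cannot be told apart here. By edgeR 0 of 49 tested members and 0% of all genes had an adjusted p below 0.05, and the smallest adjusted p of a member was 0.987. DESeq2 also called 0 of 48 members, and 4 genes of any kind. At an unadjusted p below 0.05 there were 2 members, against 3.80% of all genes. These were Sema4a, with a log2 fold change of 0.46 ± 0.16, and Nrp1, with -0.47 ± 0.21. The 8 T cell markers had a median log2 fold change of 0.65 in this comparison, and none was called. Their sums were 9.59 to 26.3 CPM in non-responders and 6.81 to 18.7 CPM in IgG controls. The log2 fold changes of all 49 lay between -0.47 and 0.85, and the 2 groups overlapped for every member, where 0.0384% of all genes had groups that did not overlap. The SEs of these log2 fold changes ran from 0.08 for Sema4c, which is well counted, to 0.70 for Epha8, which had at most 73 counts in a tumor.

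Other genes of these pathways were examined from 3 lists. Of 16 surface partners 5 were called higher in responders than in non-responders and none lower, where 12.5% of all genes were called higher. They were L1cam, a neuropilin partner (1.10 ± 0.31, adjusted p = 0.0175), Chl1, its relative (2.91 ± 0.83, adjusted p = 0.0202), Timd2, which encodes the Sema4a receptor Tim-2 (3.69 ± 0.83, adjusted p = 0.00416), Itga1, the alpha chain of an integrin bound by Sema7a (1.36 ± 0.31, adjusted p = 0.00437), and Kdr, the VEGF receptor that pairs with Nrp1 (1.42 ± 0.45, adjusted p = 0.0335). Timd2 was at 0.506 and 0.828 CPM in the responders and at most 0.122 CPM elsewhere, so its size rests on few counts. Against IgG controls 4 surface partners were called higher, while Kdr did not pass (1.10 ± 0.43, adjusted p = 0.0803). The lower responder, at 21.5 CPM of Kdr, lay within the 6.54 to 25.4 CPM of IgG controls. The genes of the 3 lists were not examined with single tumors left out. Of 24 tested transducers 3 were called higher, the same 12.5% as over all genes, and none lower. They were Tiam1, a Rac exchange factor (1.304 ± 0.27), Mical1, an oxidoreductase downstream of A plexins (1.52 ± 0.26), and Sh2d3c, an adaptor of Eph receptors (1.59 ± 0.26), with adjusted p of 0.00195, 0.000479 and 0.000339. Fyn, a kinase used by both systems, at 0.67 ± 0.14 (adjusted p = 0.00287), and Rgs3, which binds ephrin-B tails, at 0.56 ± 0.14 (adjusted p = 0.00860), passed the test at a smaller fold. Of 18 tested slit, netrin and repulsive guidance genes 3 were called higher, a share near that of all genes, and none lower. These were the netrin receptor Unc5c (3.25 ± 0.60, adjusted p = 0.000844), the netrin-binding cue Draxin (2.78 ± 0.74, adjusted p = 0.0132) and the membrane-anchored netrin Ntng1 (2.76 ± 0.69, adjusted p = 0.00864). Against IgG controls 3 of the third list were again called higher, with Slit3, a secreted Robo ligand, at 2.72 ± 0.80 (adjusted p = 0.0205), while Ntng1 did not pass (1.77 ± 0.65, adjusted p = 0.0586). Unc5a, another netrin receptor, was lower at -0.62 ± 0.18 (adjusted p = 0.0220), and the median log2 fold change of that list was -0.018. Against non-responders the medians of the 3 lists were 0.23, 0.22 and 0.35, beside 0.019 over all genes.

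To describe how the members vary without the responder difference, their log2 CPM was compared with marker lists over the 14 IgG control and non-responder tumors. With 49 members and 4 lists (T cell, macrophage, blood vessel endothelium, fibroblast) 196 pairs were tested by permutation, and 27 had a Benjamini-Hochberg adjusted p below 0.05 by Pearson's r, 15 of them positive, against 2 by Spearman's rho. Sema3g followed the endothelial list most closely (r = 0.885, rho = 0.851, permutation p = 7e-05 and 0.00035, adjusted 0.0137 and 0.0412). Its r was 0.825 without the 2 tumors farthest from the median, 0.953 within IgG controls and 0.818 within non-responders, so that in either group the tumors with more endothelial marker RNA held more Sema3g. Sema3f (r = 0.848, rho = 0.754, permutation p = 0.0002 and 0.00265, adjusted 0.0196 and 0.104) and Sema6d (r = 0.790, rho = 0.767, permutation p = 0.00108 and 0.00209, adjusted 0.0265 and 0.102) followed the same list by Pearson's r, at 0.704 and 0.677 without the 2 farthest tumors. In all, 6 pairs passed with this list by Pearson's r, 4 of them positive. Epha3 (r = 0.691), Efna5 (r = -0.689) and Plxna3 (r = -0.726) completed them. Sema4a rose with the T cell list (r = 0.808, rho = 0.793, permutation p = 0.0004 and 0.00121, adjusted 0.0261 and 0.0791), at 0.752 without the 2 farthest tumors, 0.576 within IgG controls and 0.830 within non-responders. The fibroblast list had 7 pairs, all positive, with Sema3f, Sema6d, Sema3g, Nrp2, Efnb1, Plxna4 and Plxnc1 at r of 0.699 to 0.760, which were 0.531 to 0.753 without the 2 farthest tumors.

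The macrophage list had 13 pairs, of which 10 were negative, and they no longer passed by Pearson's r without the tumors of high mitochondrial share. Sema6c, a transmembrane class 6 semaphorin, had an r of -0.810 (rho = -0.833, permutation p = 0.00169 and 0.00042, adjusted 0.0333 and 0.0412). Its r was -0.594 without those tumors, the only one of the 13 still above 0.5 in size, and -0.432 without the 2 farthest. Over all 14 tumors, the pair of Sema6c and the macrophage list and that of Sema3g and the endothelial list were the 2 to pass by Spearman's rho. The negative pairs included Efna1, Efna2, Efna4, Efna5, Efnb2 and Efnb3, at r of -0.858 to -0.743. The positive ones were Epha3, Nrp1 and Sema3d, at 0.711 to 0.787. Without IgG control replicate 1 and non-responder replicates 9 and 14, 12 of the 13 pairs had an r below 0.5 in size and 7 turned in sign, while the pairs of Sema3g and Sema3f with the endothelial list were at 0.871 and 0.912 and that of Sema4a with the T cell list at 0.873. The other endothelial pairs no longer passed there, with r of 0.795 for Sema6d, -0.558 for Plxna3, 0.451 for Epha3 and -0.419 for Efna5. Of the fibroblast pairs, those of Efnb1, Nrp2, Plxna4, Plxnc1 and Sema3g no longer passed there either, at r of 0.58 to 0.692. Those of Sema3f and Sema6d with the fibroblast list still passed, at 0.848 and 0.779. In those 3 tumors the macrophage list was low and several ephrins were high, as for Efna1 at 21.3 CPM in IgG control replicate 1 against 7.74 to 11.1 CPM in the other 7 IgG controls. Without these tumors 6 of the 196 pairs passed by Pearson's r.

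**Figure D5:**
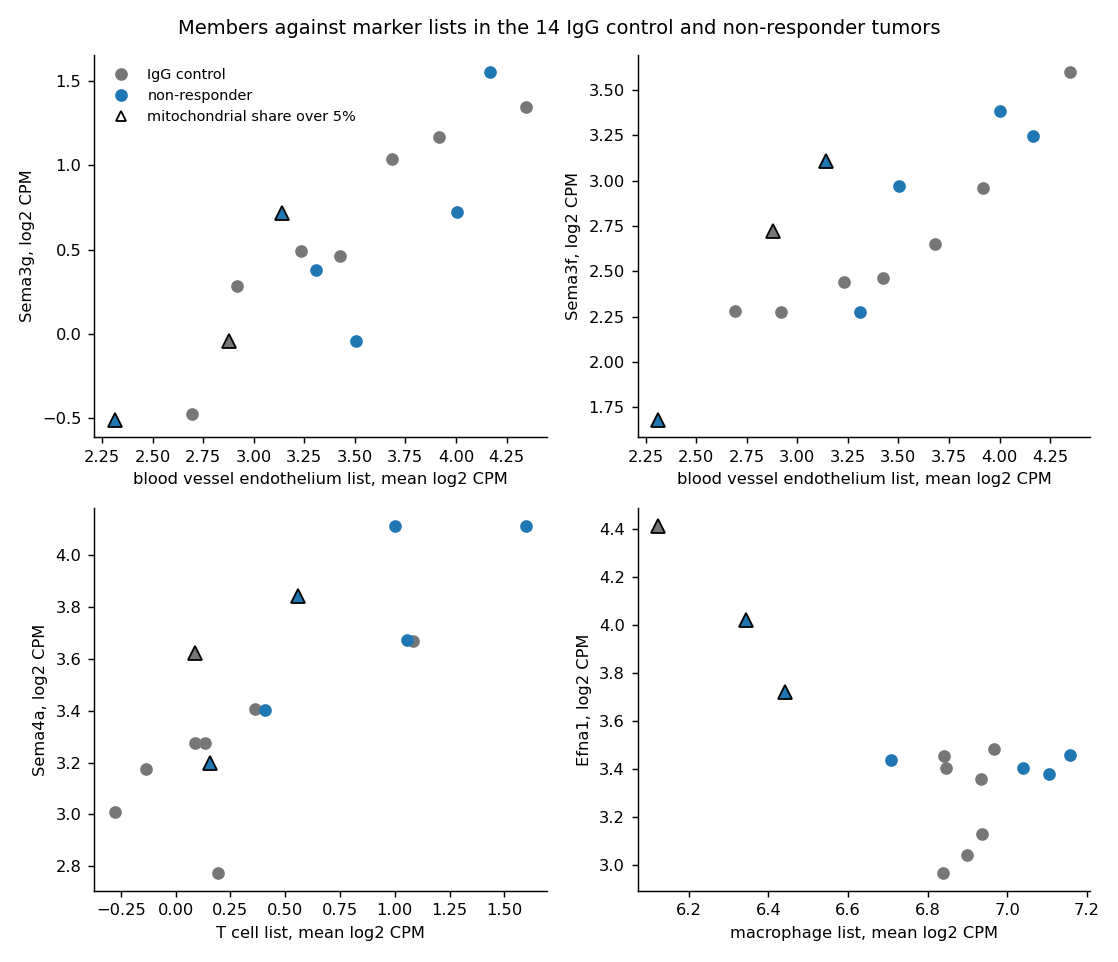
Log2 CPM of 4 members against the mean log2 CPM of a marker list in 8 IgG control (grey) and 6 non-responder (blue) tumors, with triangles for the 3 tumors whose mitochondrial share exceeds 5%. Sema3g and Sema3f rise with the endothelial list and Sema4a with the T cell list across both groups, while the fall of Efna1 along the macrophage list is carried by the triangles.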

How the data were processed

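Bulk poly(A) RNA of 16 tumors was sequenced with a strand-specific kit. The authors aligned reads with STAR 2.6 to GRCm38 and deposited expected counts from RSEM 1.3.0, unnormalized, in 1 table of 53465 genes and 92 spike-in entries, which held at most 185 counts in a tumor and were left out. Of the values 7.84% were not whole (tolerance 0.005), and counts were rounded. GENCODE M21 matched 53360 genes, and 3 antisense genes that share the symbol rule were left out. Members, gene lists and tests were chosen with earlier results of these data known.

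Counts were scaled by TMM, filtered with filterByExpr and fitted across all genes in 1 model of 3 groups with edgeR 4.0.16 in R 4.3.3 (quasi-likelihood, robust, Benjamini-Hochberg over 18251 genes, thresholds 0.05 and 1). The scripts were tested on simulated data. Each tumor came from another mouse, so p-values measure the spread between mice. In the fold change tests that spread was estimated over the 3 groups together, and the 2 responders add little to it. No pair of tumors looked like copies, as chi-square divided by its degrees of freedom was at least 16.5 in each of 120 pairs. Log2 CPM used a prior count of 2, and correlations 100000 permutations, two-sided (numpy 2.4.6, with ranks from scipy 1.17.1). Group values of CPM were given for members called and for the member of highest level per length in each role, and, chosen after their values were seen, for Sema4b, Sema4c and Nrp1. Of the members 14 share exons with another gene, 3 of them on the same strand, and these counts may be divided by RSEM. The other gene of those 3, Nrp1, Plxnc1 and Sema4a, had a mean of at most 0.00238 CPM. Alternatives were DESeq2 1.42.0, median-of-ratios size factors, other filters and prior count, the 2 groups only, each tumor left out and, chosen after seeing the data, the 3 tumors of high mitochondrial share left out.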

Additional observations from a re-analysis of the deposited data

Results flagged for a closer look

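Of 98 sets of values (49 members in IgG controls and in non-responders), 14 held 1 tumor set apart from the rest of its group by Dixon's test. The rate of about 1 in 20 by chance holds for independent, normally distributed values. These sets share tumors and include members with few counts, so the 14 cannot be weighed against that rate. Of the 14, 6 were in IgG control replicate 1, the tumor of highest mitochondrial share (7.6%). In that tumor Ephb3 was at 7.03 CPM (3.14 to 4.48 CPM in the other 7 IgG controls), Efna1 at 21.3 CPM (7.74 to 11.1), Efna2 at 17.3 CPM (6.32 to 9.28) and Sema4b at 24.6 CPM (9.15 to 15.9), all above the others, while Nrp1 at 23.3 CPM (43.4 to 60.6) and Sema3a at 141.0 CPM (228 to 291) were below them. The part of the mitochondrial share in these values was not tested.

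The 2 other tumors of high mitochondrial share held 3 such values. Efna3 was at 3.66 CPM in non-responder replicate 14 (2.07 to 2.30 CPM in the other 5 non-responders), Sema6a at 33.8 CPM in the same tumor (15.3 to 19.6) and Sema6c at 4.42 CPM in non-responder replicate 9 (2.22 to 2.73).

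The other 5 values lay in tumors of ordinary mitochondrial share. Sema3f was at 12.1 CPM (4.79 to 7.73) and Ephb1 at 0.602 CPM (0.038 to 0.253) in IgG control replicate 2, which also had the highest endothelial sum of its group, 204 CPM. Plxnc1 was at 15.9 CPM (8.10 to 11.2) in IgG control replicate 8, whose T cell sum of 18.7 CPM was the highest of the IgG controls. Epha8 was at 2.19 CPM (0 to 0.711) in IgG control replicate 4, and Epha1 at 0.329 CPM (0.0576 to 0.136) in non-responder replicate 12.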

How the results depend on the processing

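With 2 responders, single tumors set much of the result. Leaving out each tumor in turn gave 5 to 13 members called and 5 to 20 with an adjusted p below 0.05 between responders and non-responders, 6 to 14 and 6 to 18 between responders and IgG controls, and 4 to 30 of 196 correlated pairs. The counts of 5 and 6 came without responder replicate 15, which leaves 1 responder, and the correlated pairs numbered 4 without IgG control replicate 1 and, when non-responder 9, 13 or 14 was left out, 6, 15 and 4. Without the 3 tumors of high mitochondrial share 6 pairs were left, and r with the macrophage list turned to -0.14 for Epha3, 0.18 for Ephb3, 0.22 for Efna1, 0.037 for Efna2, 0.057 for Efnb3, -0.18 for Nrp1 and 0.14 for Sema4b. The log2 fold change of Sema4b against non-responders turned to -0.029 without responder replicate 15 and was 1.18 without replicate 16. Of 790 alternative values for 36 named fold changes, 725 kept their direction and side of the threshold, 60 no longer passed and 4 newly passed. Of the 60, 23 arose without responder replicate 15 and 6 without replicate 16. The cause of these changes was not tested. Counts from DESeq2, other size factors, other filters and the 2-group fits stayed within 1.5 times. Members with few counts, such as Sema4f and Epha4, have imprecise fold changes. No paired analysis was possible because the mouse numbers run from 1 to 16 over the groups and no 2 groups share one.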
